A study of Mus musculus with 6 samples.

Results

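The 47 genes described here encode the insulin receptor, its substrates and adaptors, the subunits of phosphoinositide 3-kinase (PI3K), the kinase AKT with its activator and targets, the phosphatases and inhibitors of this route, and the mTOR kinase complexes with their regulators and substrates. They were chosen by symbol, and all 47 had 1 row each among the 49671 genes of the count table and passed the filter on low counts, so that 47 of 47 were tested. RNA was sequenced from 6 libraries of immortalised mouse preadipocytes differentiated into adipocytes in culture. The knockout group (3 libraries) came from cells given 4-hydroxytamoxifen (4-OH-Tam) for 24 h, 2 days before differentiation was induced, and the labels call their genotype Tcf7l2 knock out. The control group (3 libraries) came from cells given ethanol (EtOH) at the same time, and the labels call their genotype wild type. The cells of each group descend from inguinal preadipocytes of C57BL/6 mice aged 3 months with floxed Tcf7l2 alleles, carry the immortalising large T antigen of SV40, and also CreERT2, a Cre recombinase that 4-hydroxytamoxifen switches on. Differentiation used 1 µM dexamethasone, 0.5 mM isobutylmethylxanthine and 5 µg/mL insulin for 2 days, and insulin stayed in the medium at 5 µg/mL until harvest at day 8. Every library therefore came from cells kept in insulin. Each library's labels further name a 5 nM agent by a code whose number goes up by 1 from library to library, higher in knockout than in control libraries, and the labels do not settle whether the agent itself differed. The drug and the deletion coincide in the design and cannot be told apart, and the labels do not say whether the line is 1 clone. Separate cultures are not named, so p-values reflect library-to-library spread only, and this may be technical.

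Insulin drives glucose uptake and lipid storage in adipocytes by activating its receptor, a tyrosine kinase that phosphorylates docking proteins of the IRS family. These recruit PI3K, whose lipid product brings AKT to the membrane, where AKT is switched on, releases glucose transporters to the cell surface and holds FOXO transcription factors outside the nucleus. A separate branch runs through SHC and GRB2 to RAS, and AKT also relieves the brake that the TSC proteins place on RHEB, and thereby activates mTOR complex 1, which promotes protein and lipid synthesis through S6 kinase and the 4E-BP repressors of translation.

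Akt1 and Akt2, which encode the kinase at the centre of the pathway, were called in opposite directions. Among the members with a promoter sequence to search, they were also the only ones with a match to either motif. Of each gene the promoter that holds the match is shown, and its promoters without a match are not. The sequences are from RefSeq (build GRCm38.p6) and run from 250 bases before a transcription start to 50 bases after it, with motif matches in capitals. In the Akt2 promoter the capitals mark the TCF/LEF motif CTTTGAT, first on the opposite strand (ATCAAAG) and then on the strand of the gene. In the Akt1 promoter they mark the FOXO motif TGTTTAC. No match overlaps another.
Akt2 promoter, chr7:27591302-27591601, plus strand: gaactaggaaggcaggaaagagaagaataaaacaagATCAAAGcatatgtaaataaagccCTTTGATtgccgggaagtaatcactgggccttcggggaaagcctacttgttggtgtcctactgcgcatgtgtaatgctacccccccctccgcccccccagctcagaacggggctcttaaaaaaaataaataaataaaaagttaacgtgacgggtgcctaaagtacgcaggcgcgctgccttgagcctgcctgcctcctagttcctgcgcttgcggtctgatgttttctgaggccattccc
Akt1 promoter, chr12:112674835-112675134, minus strand: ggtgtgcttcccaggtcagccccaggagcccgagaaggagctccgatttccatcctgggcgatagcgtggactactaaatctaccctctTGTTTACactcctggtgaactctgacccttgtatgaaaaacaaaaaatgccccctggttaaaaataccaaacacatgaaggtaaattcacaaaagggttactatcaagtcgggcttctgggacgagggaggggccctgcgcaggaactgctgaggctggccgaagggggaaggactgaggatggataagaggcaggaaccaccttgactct

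The Akt2 matches begin 214 and 190 bases before the start, and the Akt1 match begins 161 bases before it. RefSeq gives Akt2 4 promoters and Akt1 2, and the matches lie in 1 promoter of each gene. Of the 47 members, 41 had a promoter in this set, 56 promoters in all, and the TCF/LEF motif was found on either strand in 1 of these 41 genes (2.44%), Akt2, against 4.29% of the 27025 genes in the set. The FOXO motif was likewise found in 1 of 41 (2.44%), Akt1, against 4.05% of all genes. Insr, Trib1, Deptor, Foxo4, Rps6kb2 and Eif4ebp1 had no promoter in this set and were not searched. Per promoter, 3.73% of 32851 held the TCF/LEF motif and 3.65% the FOXO motif. A match describes these letters and is no evidence of binding.

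The libraries held 26764263 to 31520011 counts in knockout and 26621293 to 33484764 in control cells. Levels are CPM, read counts divided by library size after TMM scaling, with no correction for gene length. Summed marker levels, and levels of partner genes whose exons overlap those of members, were instead divided by total counts without TMM scaling. The lowest count of any member in any library was 70 reads, for Trib1. Tcf7l2 itself (GRCm38 chromosome 19, 55741820 to 55933654) was at 5.65, 6.85 and 5.86 CPM in knockout libraries and 7.71, 6.13 and 9.11 CPM in control libraries, so the groups overlapped (fitted log2 difference -0.32, SE 0.139; adjusted p = 0.125 by edgeR). Without control replicate 2 it was called lower (edgeR adjusted p = 0.0322), the only call of Tcf7l2 among 13 alternative fits. A count over the whole gene does not measure the loss of a floxed exon. All 10 mature adipocyte markers examined, Adipoq and Plin1 among them, were called higher in knockout cells, and their summed level was 8777 to 10440 CPM in knockout against 5980 to 6273 CPM in control libraries. Of 10 preadipocyte and fibroblast markers 1 was called, Thy1, lower, and their sums overlapped (4046 to 4721 CPM in knockout and 4165 to 4577 CPM in control libraries). The haematopoietic markers Adgre1 and Cd3e and the globin genes Hba-a1, Hba-a2, Hbb-bs and Hbb-bt had no read in any library, with the 7 haematopoietic markers together at 1.96 to 2.69 CPM in knockout and 1.88 to 2.07 CPM in control libraries. The 6 erythroid markers summed to 0.0747 CPM at most. Of 7 endothelial markers 3 were tested and Kdr was called higher, with sums of 26.8 to 28.4 CPM in knockout and 23.8 to 25.6 CPM in control libraries. More adipocytes and more RNA per adipocyte cannot be told apart in such bulk samples, and the part of the adipocyte markers in the results that follow was not tested.

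In all, 12 of the 47 members rose in knockout cells and 1 fell, as called by edgeR's quasi-likelihood test at an adjusted p under 0.05 over all 14946 genes tested. The rises were those of Insr, Irs3, Sh2b2, Pik3r1, Pik3cb, Akt2, Foxo1, Grb14, Trib1, Mtor, Deptor and Eif4ebp2, and the fall was that of Akt1. In this comparison 22.4% of all tested genes were called, 11.9% higher and 10.5% lower, and of the members 27.7% were called, 25.5% higher and 2.13% lower. The share called, with the directions pooled, lay near the background, while the higher share was above its background and the lower share below it. All of these steps were under 2-fold, with a median size of 0.42 on the log2 scale among called members and 0.34 among all called genes. Over all 47 members the median log2 fold change was 0.064, and over all tested genes it was -0.0017. By role, it was 0.15 for the 11 genes of the receptor, its substrates and adaptors, -0.025 for the 6 PI3K subunits, 0.042 for the 9 genes of AKT and its targets, 0.025 for the 8 inhibitors and phosphatases, 0.074 for the 6 genes of the mTOR complexes and 0.073 for the 7 regulators and targets of complex 1. CPM values of the groups did not overlap for 13 members higher and 6 lower in knockout cells, 40.4% of members against 37.9% of tested genes.

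**Figure D1:**
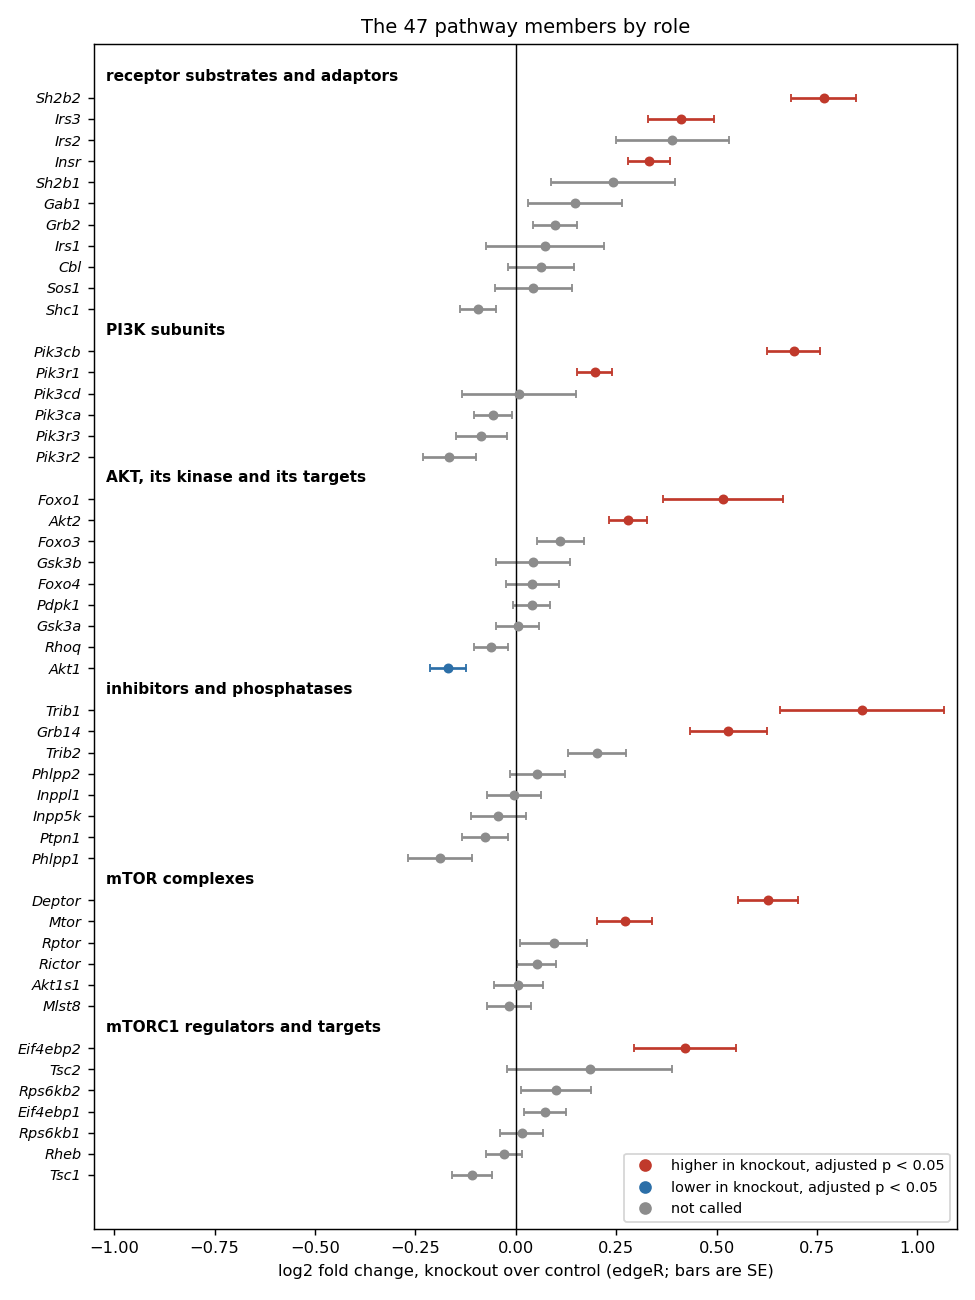
Log2 fold change of each of the 47 members, knockout over control, with its SE (horizontal bars), grouped by role and sorted within each role; red points were called higher, the blue point lower and grey points were not called. Each of the 6 roles has at least 1 red point, Akt1 is the single blue point, and the fitted values run from -0.19 (Phlpp1) to 0.86 (Trib1).

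At the receptor, the insulin receptor gene, 1 of its docking proteins and 1 of its adaptors rose. Of these 11 genes 27.3% were called, against 22.4% of all genes. Sh2b2, which encodes the adaptor APS that binds the activated receptor and brings CBL to it, was at 29.1, 32.9 and 29.2 CPM in knockout libraries and 17.4, 16.6 and 19.8 CPM in control libraries. The lowest knockout library lay well above the highest control library, a 1.70-fold rise (log2 fold change 0.77 with an SE of 0.08; edgeR adjusted p = 1.44e-05). Insr (GRCm38 chromosome 8, 3122061 to 3279617, minus strand) was at 81.3, 73.8 and 76.2 CPM in knockout libraries and 60.4, 60.4 and 63.1 CPM in control libraries. Its groups did not overlap either, and it rose 1.26-fold (SE of the log2 fold change 0.0525; edgeR adjusted p = 4.36e-04). Irs3, a docking protein gene that is active in rodent fat, was at 15.9, 19 and 17.4 CPM in knockout libraries against 13.2, 12.7 and 13.4 CPM in control libraries, 1.33-fold higher without overlap (edgeR adjusted p = 0.00253).

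The other docking proteins were not called. Irs2, the docking protein gene that FOXO factors activate in liver, was at 16.3, 21.9 and 16.5 CPM in knockout libraries and 12.4, 13.1 and 16.5 CPM in control libraries. Knockout replicate 2 stood above the rest, and control replicate 3 lay among the lower knockout libraries (log2 fold change 0.39 with an SE of 0.14; edgeR adjusted p = 0.0769). Irs2 was called without control replicate 3 (edgeR adjusted p = 0.0199). Irs1, a docking protein gene expressed in most insulin-responsive tissues, averaged 124 ± 21.8 CPM in knockout and 118 ± 13.9 CPM in control cells (SD, n = 3 each), with overlapping groups. Per kilobase of exon, Irs1 was at 13.6 CPM in knockout and 13 CPM in control cells, Irs3 at 7.46 and 5.61, and Irs2 at 2.88 and 2.21. The order Irs1, Irs3, Irs2 was the same in knockout and in control cells.

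Of the adaptors that lead to RAS, Shc1, which encodes the docking protein of that branch, was at 191, 193 and 195 CPM in knockout libraries and 209, 198 and 210 CPM in control libraries. All 3 knockout libraries were below the control libraries, but the step of -0.093 on the log2 scale (SE 0.0449) missed the threshold (edgeR adjusted p = 0.164). Grb2, the adaptor between SHC and the RAS activator SOS, averaged 36.2 ± 0.852 CPM in knockout and 33.9 ± 0.418 CPM in control cells without overlap and was not called. Sh2b1, the relative of Sh2b2 that acts in leptin and insulin signalling, was at 13.1, 19.8 and 14.6 CPM in knockout libraries and 12, 13.2 and 15.2 CPM in control libraries. The groups overlapped (edgeR adjusted p = 0.321), and a call was made only with no filter on low counts (edgeR adjusted p = 0.0385). The docking protein gene Gab1 (22 ± 3.62 CPM in knockout, 20 ± 2.12 CPM in control), Sos1 (19.1 ± 2.1 and 18.5 ± 1.92 CPM) and the ubiquitin ligase gene Cbl (11.9 ± 0.349 and 11.4 ± 0.674 CPM) overlapped between the groups (SD, n = 3 each).

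Of the PI3K subunits, 1 catalytic and 1 regulatory gene rose and the other 4 were not called (33.3% called, against 22.4% of all genes). Pik3cb, which encodes the catalytic subunit p110β, was at 26.8, 25.3 and 26.8 CPM in knockout libraries and 16.3, 16 and 16.5 CPM in control libraries. The libraries of each group lay close together and far from the other group, a 1.62-fold rise (log2 fold change 0.69 with an SE of 0.0656; edgeR adjusted p = 6.67e-06, the lowest of the 47). Pik3r1, which encodes the regulatory subunit p85α and its shorter forms, was at 526, 508 and 507 CPM in knockout libraries and 450, 451 and 444 CPM in control libraries. It rose 1.15-fold without overlap (SE of the log2 fold change 0.0439; edgeR adjusted p = 0.00544).

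Pik3ca, which encodes p110α, the main catalytic subunit in insulin signalling, was at 153, 142 and 155 CPM in knockout libraries and 156 CPM in each control library. The knockout libraries lay just below the control libraries, by a fitted log2 step of -0.057 (SE 0.0473), which missed the threshold (edgeR adjusted p = 0.44). Pik3r2, which encodes the regulatory subunit p85β, was at 75.4, 91.3 and 78.1 CPM in knockout libraries and 92, 89.4 and 93.3 CPM in control libraries. Knockout replicate 2 alone lay among the control libraries, and without it the gene was called lower (edgeR adjusted p = 8.4e-04, against 0.0918 with all libraries). Pik3r3 averaged 28.6 ± 0.899 CPM in knockout and 30.3 ± 1.57 CPM in control cells, and the leukocyte-enriched catalytic gene Pik3cd 3.68 ± 0.546 and 3.68 ± 0.372 CPM (SD, n = 3 each), with overlap for each. Per kilobase of exon, Pik3ca stood at 16.5 CPM in knockout and 17.1 CPM in control cells, and Pik3cb at 3.66 and 2.26, so that p110α mRNA exceeded p110β mRNA in knockout and in control cells.

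Of AKT and the genes around it, Akt2 rose, Akt1 fell and Foxo1 rose (33.3% of 9 genes called, against 22.4% of all genes). Akt2, the isoform most tied to insulin action in fat and muscle, was at 75.6, 73 and 73.7 CPM in knockout libraries and 60.4, 62.6 and 60.2 CPM in control libraries. It rose 1.21-fold with no overlap (log2 fold change 0.28 with an SE of 0.0479; edgeR adjusted p = 8.25e-04). Akt1, the isoform tied to growth and survival, was at 218, 226 and 214 CPM in knockout libraries and 245, 251 and 242 CPM in control libraries. All knockout libraries were below all control libraries, a 1.12-fold fall (log2 fold change -0.17 with an SE of 0.045; edgeR adjusted p = 0.0161). That call was lost without knockout replicate 3, control replicate 1 or control replicate 2 (edgeR adjusted p of 0.093, 0.0586 and 0.0658). Akt1 remained the more abundant of the pair, at 53.4 CPM per kilobase of exon in knockout and 60 in control cells, against 10.4 and 8.56 for Akt2. These are the genes whose promoters are printed above.

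Foxo1, a transcription factor that AKT keeps out of the nucleus, was at 11.7, 17.1 and 15.3 CPM in knockout libraries and 8.93, 9.95 and 12.1 CPM in control libraries. Knockout replicate 1 lay below control replicate 3, so the groups overlapped, and the 1.43-fold rise was called (log2 fold change 0.52 with an SE of 0.149; edgeR adjusted p = 0.0328) but not without knockout replicate 2 or 3 or control replicate 1 or 2 (edgeR adjusted p of 0.0807, 0.108, 0.132 and 0.117). Its relatives Foxo3 (73.4 ± 4.25 CPM in knockout, 68 ± 3.91 CPM in control) and Foxo4 (26.9 ± 1.64 and 26.2 ± 0.88 CPM) overlapped and were not called (SD, n = 3 each). Pdpk1, which encodes the kinase PDK1 that activates AKT, averaged 132 ± 4.08 CPM in knockout and 128 ± 2.17 CPM in control cells and was not called. The genes of the AKT targets GSK3α and GSK3β were close between the groups. Gsk3a averaged 38.9 ± 0.999 CPM in knockout and 38.7 ± 0.355 CPM in control cells, and Gsk3b 51.1 ± 5.8 and 49.7 ± 5.26 CPM (SD, n = 3 each). Rhoq, which encodes the small GTPase TC10, was at 176, 178 and 174 CPM in knockout libraries and 181, 186 and 183 CPM in control libraries, lower in each knockout library but not called (edgeR adjusted p = 0.345). Gsk3a shares 28.3% of its exonic bases with 9130221H12Rik on the opposite strand, and the strand setting of the counting is not given in the sources used here.

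**Figure D2:**
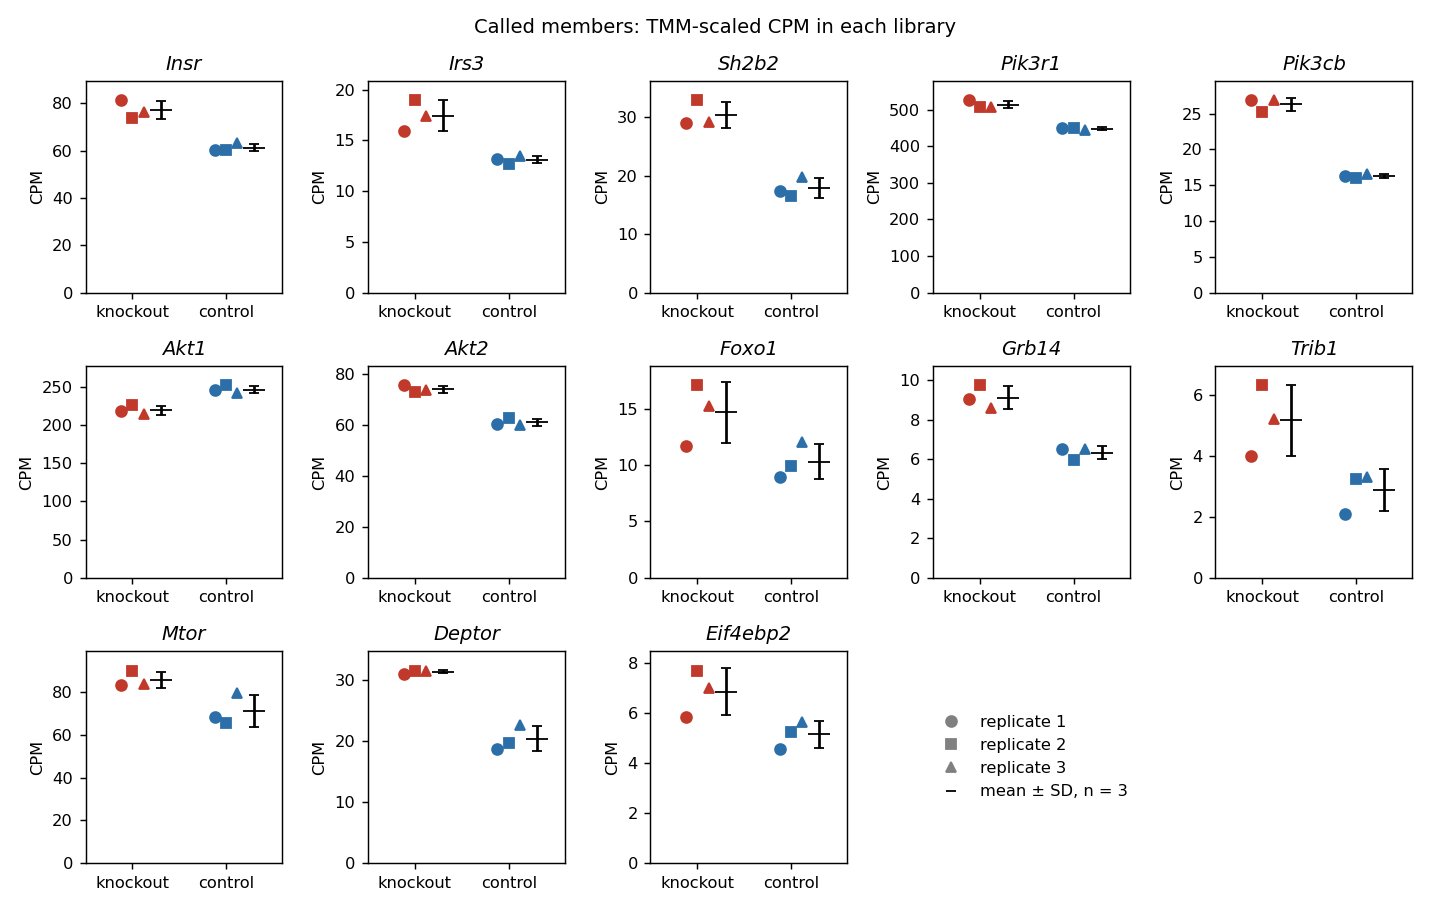
TMM-scaled CPM (vertical axes from 0) of the 13 called members in each knockout (red) and control (blue) library, with marker shape giving the replicate and black bars the mean ± SD (n = 3). Foxo1 is the one panel in which the groups overlap, and Akt1 the one in which the knockout libraries are lower. Replicates were numbered within each group, so equal shapes mark no known pairs.

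Among the inhibitors and phosphatases, an inhibitor of the receptor and a pseudokinase rose, and the other 6 genes were not called. The share called was 25%, near the 22.4% of all genes. Grb14, an adaptor that binds the receptor and blocks its kinase, was at 9.06, 9.75 and 8.59 CPM in knockout libraries and 6.52, 5.95 and 6.52 CPM in control libraries. It rose 1.44-fold without overlap (log2 fold change 0.53 with an SE of 0.0967; edgeR adjusted p = 0.00134). Trib1, a pseudokinase of the Tribbles family, was low, at 3.98, 6.31 and 5.19 CPM in knockout libraries and 2.08, 3.22 and 3.31 CPM in control libraries. All knockout libraries exceeded all control libraries, and its rise was the highest fitted among the members, 1.82-fold, with the widest error of the called members (log2 fold change 0.86 with an SE of 0.204; edgeR adjusted p = 0.0107). Its relative Trib2 was at 29.8, 26.3 and 26.6 CPM in knockout libraries and 22.4, 25.2 and 24.4 CPM in control libraries, higher in each knockout library but not called (edgeR adjusted p = 0.062), though it was without knockout replicate 2 (edgeR adjusted p = 0.0279).

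Phlpp1, which encodes a phosphatase that dephosphorylates AKT, was at 16.5, 19.4 and 16.5 CPM in knockout libraries and 19.2, 20.4 and 20.1 CPM in control libraries. Knockout replicate 2 overlapped the control libraries, and the step of -0.19 (log2, SE 0.0801) was called without it (edgeR adjusted p = 0.0132) but not with all libraries (0.113). Inppl1, which encodes the lipid phosphatase SHIP2, was at 87.5, 99.3 and 81.1 CPM in knockout libraries and 86.7, 90.1 and 92.3 CPM in control libraries. All control values lay within the range of the knockout values. Ptpn1, which encodes PTP1B, a phosphatase that acts on the insulin receptor, averaged 47.8 ± 3.13 CPM in knockout and 50.5 ± 0.225 CPM in control cells (SD, n = 3 each). It was not called (edgeR adjusted p = 0.387). The lipid phosphatase gene Inpp5k (21 ± 0.807 CPM in knockout, 21.6 ± 1.17 CPM in control) and Phlpp2 (22.2 ± 0.963 and 21.5 ± 1.07 CPM) overlapped between the groups (SD, n = 3 each). Inppl1 shares 18.8% of its exonic bases with Gm10602 (1.22 CPM), transcribed from the opposite strand.

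In the mTOR complexes, the kinase gene and the gene of its inhibitory partner rose, and the other 4 subunits were not called. The share called was 33.3%, against 22.4% of all genes. Deptor, which encodes a subunit that restrains the mTOR kinase in each of its complexes, was at 31, 31.5 and 31.5 CPM in knockout libraries and 18.7, 19.6 and 22.6 CPM in control libraries. The knockout libraries were nearly equal and all above the control libraries, a 1.55-fold rise (log2 fold change 0.63 with an SE of 0.0739; edgeR adjusted p = 3.88e-05). Mtor was at 83.1, 90.1 and 83.9 CPM in knockout libraries and 68.5, 65.3 and 79.6 CPM in control libraries. It rose 1.21-fold (edgeR adjusted p = 0.0131), and the call was lost without control replicate 1 (edgeR adjusted p = 0.0817) or control replicate 2 (0.0723). Control replicate 3 was the control library nearest to the knockout values. Rictor, the defining subunit of complex 2, was at 101, 94 and 100 CPM in knockout libraries and 91.7, 96.4 and 96.2 CPM in control libraries, with overlap. Rptor, the defining subunit of complex 1 (23.9 ± 2.48 CPM in knockout, 22.4 ± 1.64 CPM in control), Mlst8, shared by the complexes (33.8 ± 0.607 and 34.2 ± 0.387 CPM), and Akt1s1, the AKT-regulated inhibitor PRAS40 of complex 1 (58.6 ± 4.89 and 58.4 ± 1.5 CPM), overlapped too (SD, n = 3 each).

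Downstream, 1 of 7 regulators and targets of complex 1 was called, 14.3% against 22.4% of all genes. Eif4ebp2, a repressor of cap-dependent translation that complex 1 inactivates, was at 5.85, 7.71 and 7.02 CPM in knockout libraries and 4.56, 5.24 and 5.65 CPM in control libraries. The groups were adjacent without overlap, and the 1.34-fold rise was called (log2 fold change 0.42 with an SE of 0.127; edgeR adjusted p = 0.03) but not without knockout replicate 2 or 3 or control replicate 1 or 2 (edgeR adjusted p of 0.0869, 0.0973, 0.159 and 0.0785). Its relative Eif4ebp1 overlapped between the groups (119 ± 5.59 CPM in knockout and 113 ± 4.63 CPM in control cells; SD, n = 3 each). Per kilobase of exon, Eif4ebp1 stood at 54.3 CPM in knockout and 51.6 CPM in control cells, against 1.19 and 0.89 for Eif4ebp2.

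Rheb, the small GTPase gene that activates complex 1, was at 121, 117 and 122 CPM in knockout libraries and 125, 121 and 120 CPM in control libraries, which overlap. Tsc1, whose product restrains RHEB together with that of Tsc2, averaged 56.4 ± 1.1 CPM in knockout and 60.9 ± 1.05 CPM in control cells, lower in each knockout library by a fitted log2 step of -0.11 (SE 0.0487) that missed the threshold (edgeR adjusted p = 0.131). Tsc2 had the widest coefficient of variation of the 7 genes (49.7 ± 11.6 CPM in knockout, 43.8 ± 6.93 CPM in control; SD, n = 3 each). Tsc2 shares 7.2% of its exonic bases with Pkd1 (143 CPM), transcribed from the opposite strand, so its counts are uncertain if strand was not used. The S6 kinase genes Rps6kb1 (91 ± 3.34 CPM in knockout, 90 ± 5.31 CPM in control) and Rps6kb2 (15.4 ± 1.66 and 14.4 ± 0.574 CPM) overlapped between the groups. Exons of other members not called also meet those of partners: Irs1 with Gm9747 (30.9% of its exonic bases, partner at 0.0185 CPM), Mlst8 with Bricd5 (22.5%, 0.323 CPM) and Rps6kb2 with Ptprcap (23.7%, 0.148 CPM) on opposite strands, and Pik3r3 with Gm49337 (24.3%, no reads) on the same strand.

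Ratios between related members within a library do not depend on the scaling between libraries. The count ratio of Akt2 to Akt1 was 0.347, 0.324 and 0.344 in knockout libraries and 0.247, 0.249 and 0.249 in control libraries. The groups did not overlap (log2 difference 0.45), and an exact 2-sided permutation test gave p = 0.1, the smallest that 3 libraries against 3 allow (adjusted p = 0.175 over 7 ratios). The ratio of Irs1 to Irs2 was 6.39, 6.71 and 7.43 in knockout and 8.54, 8.87 and 8.11 in control libraries, lower in every knockout library (log2 difference -0.32, exact permutation p = 0.1). The ratio of Pik3r1 to the 3 catalytic genes together was 2.88, 2.96 and 2.73 in knockout and 2.56, 2.57 and 2.52 in control libraries (log2 difference 0.16, exact permutation p = 0.1). Eif4ebp1 over Eif4ebp2 was 19.3, 15.7 and 17.6 in knockout and 25.9, 20.8 and 19.9 in control libraries (log2 difference -0.34, exact permutation p = 0.1). These 4 ratios separated the groups. The ratios of Gsk3a to Gsk3b, of Rictor to Rptor and of Rps6kb2 to Rps6kb1 overlapped between knockout and control libraries (exact permutation p of 0.8, 0.9 and 0.6).

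**Figure D3:**
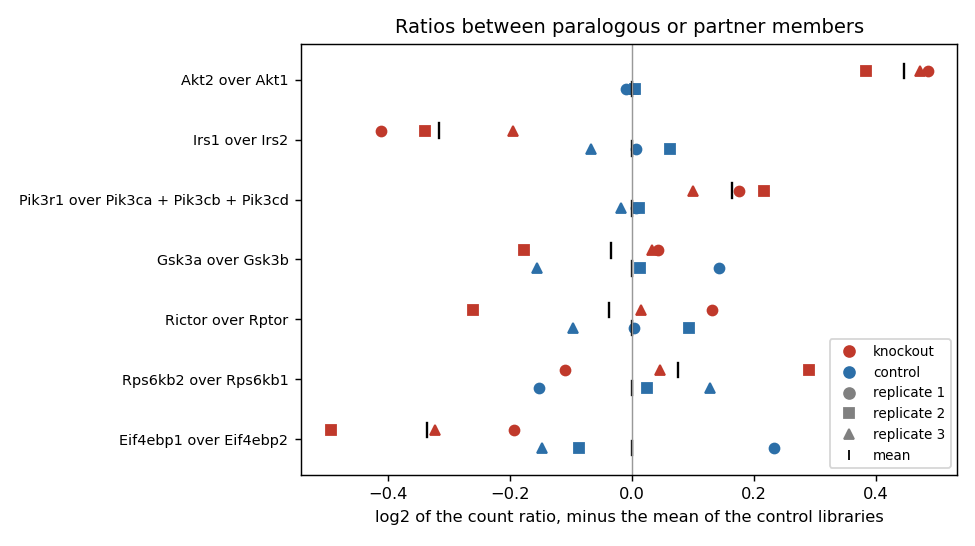
Log2 of the count ratio of related members in each library, less the mean of the control libraries (horizontal axis), for knockout (red, upper row of each ratio) and control libraries (blue, lower row), with marker shape giving the replicate and black ticks the group mean. Akt2 over Akt1 has the widest gap, at 0.45 between the group means, while the 3 ratios of GSK3, mTOR complex and S6 kinase genes overlap. Equal shapes in knockout and control mark no known pairs.

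Libraries of the same group differed in a way that many members shared. Knockout replicate 2 was the highest knockout library for 27 of 47 members (57.4%, against 36.2% of all tested genes), and control replicate 3 the highest control library for 27 (57.4%, against 36.8%). For 20 members (42.6%, against 19.3% of tested genes) each of these held, among them Irs1, Irs2, Gab1, Sh2b1, Sh2b2, Gsk3b, Foxo1, Foxo3, Trib1, Mtor, Rptor, Tsc2 and Eif4ebp2. Tsc2 was at 38.1, 61.2 and 49.7 CPM in knockout libraries and 39.5, 40.2 and 51.8 CPM in control libraries. The coefficient of variation of the members ran from 0.96% to 23.3% in knockout cells (median 5.8%) and from 0.163% to 23.9% in control cells (median 4.09%). Of the 13 called members, 7 had both, and Insr, Pik3r1, Pik3cb, Akt1, Akt2 and Grb14 did not. What these libraries share was not tested. Without these 2 libraries 17 members were called, 14 higher and 3 lower, including all 13 called with 6 libraries. The additional calls were Irs2 and Trib2 higher and Pik3r2 and Phlpp1 lower. In that fit 26.4% of all genes tested were called, against 36.2% of members. It kept 2 libraries a group. The libraries left out were singled out by values of these same members, so the added calls and the higher share are no independent evidence.

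**Figure D4:**
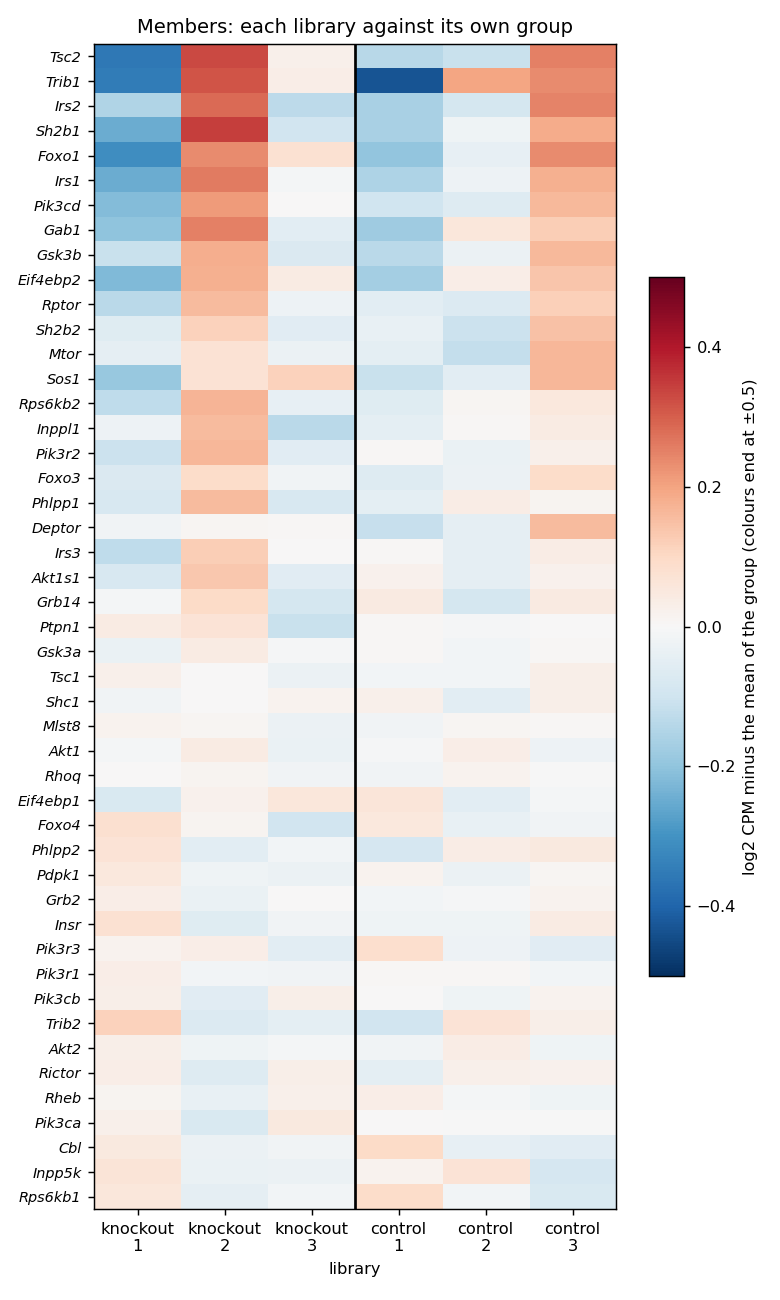
Log2 CPM of each member (rows) in each library (columns) less the mean of the library's own group, from blue (lower) to red (higher). Rows are ordered by the mean deviation of knockout replicate 2 and control replicate 3, so the gradient down these columns is set by the ordering. The uppermost rows, Tsc2, Trib1, Irs2, Sh2b1 and Foxo1, are red in those libraries and blue in knockout replicate 1 and control replicate 1.

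The wider pathway was described with 6 lists of other genes. Of 176 such genes 163 were tested, of which 27 rose, 19 fell and 117 were not called (28.2% called, 16.6% higher). Over all tested genes these shares were 22.4% and 11.9%. Their median log2 fold change was 0.042. By list, it was 0.076 for other receptor and PI3K genes, -0.029 for the RAS-MAPK branch, 0.096 for glucose transporter traffic, 0.0035 for mTOR nutrient sensing, -0.063 for outputs of complex 1 and 0.15 for FOXO targets.

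Of 32 tested genes that act with the receptor or PI3K, 7 rose, 4 fell and 21 were not called. The share called was 34.4%, against 22.4% of all genes. Grb7, an adaptor related to Grb14, was low and rose to 1.53 ± 0.294 CPM in knockout cells, against 0.491 ± 0.131 CPM in control cells, 3.03-fold (SD, n = 3 each; edgeR adjusted p = 4.67e-04). Grb10, of the same family, was far more abundant, at 244 ± 9.59 CPM in knockout and 228 ± 8.19 CPM in control cells. Its groups overlapped and it was not called (log2 fold change 0.095; edgeR adjusted p = 0.19). Pik3ap1, which encodes the PI3K adaptor BCAP, was at 11.4 ± 0.0811 CPM in knockout and 5.38 ± 0.599 CPM in control cells, 2.12-fold higher. The PI3K inhibitor gene Pik3ip1 rose 1.37-fold (23.3 ± 1.27 CPM in knockout, 17.1 ± 1.96 CPM in control). Of those that fell, the lipid phosphatase gene Inpp4b was 1.81-fold lower, at 1.74 ± 0.151 CPM in knockout and 3.14 ± 0.512 CPM in control cells. Trib3, the Tribbles member known to bind AKT, fell 1.53-fold (51.5 ± 2.31 CPM in knockout, 78.8 ± 3.92 CPM in control), in the direction opposite to Trib1. The kinase gene Sgk1 fell 1.23-fold and the phosphatase subunit gene Ppp2r5c 1.11-fold, and Ppp2r5c was not called without knockout replicate 1 or 3 or control replicate 1 or 2, with no filter on low counts or by DESeq2 (adjusted p of 0.11 at most).

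Of 21 genes of the RAS-MAPK branch, 3 rose, 3 fell and 15 were not called (28.6% called, against 22.4% of all genes). The MAP kinase phosphatase genes Dusp4 (48.9 ± 2.08 CPM in knockout, 34.5 ± 1.63 CPM in control) and Dusp6 (24.4 ± 0.957 and 17.3 ± 0.973 CPM), which ERK activity induces, rose 1.42-fold and 1.41-fold (SD, n = 3 each). The inhibitor genes Spry1, Spry2, Spry4 and Spred1 of this branch were not called (log2 fold changes -0.113, -0.029, 0.265 and -0.038). ERK activity itself was not tested. The ETS factor gene Etv4 rose 1.35-fold and was not called without knockout replicate 3 or control replicate 1 or 3, or by DESeq2 (adjusted p = 0.0702). Rasa1 and Map2k1 fell 1.12-fold and 1.11-fold, and each lost its call without knockout replicate 1 or 3 or control replicate 1, Rasa1 also without control replicate 2, by DESeq2 (adjusted p = 0.059) and with a CPM filter of at least 1 in 3 samples (edgeR adjusted p = 0.0563), and Map2k1 also without control replicate 3.

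Of 18 genes of glucose transporter traffic, 4 rose and 14 were not called. The share called, 22.2%, was near the 22.4% of all genes. Slc2a4, which encodes the insulin-responsive transporter GLUT4, was at 91.2 ± 0.897 CPM in knockout and 52.2 ± 4.23 CPM in control cells, 1.75-fold higher (edgeR adjusted p = 1.04e-06). It is also among the 10 mature adipocyte markers counted above. Sort1, which encodes the sorting receptor sortilin of GLUT4 vesicles, rose 1.70-fold to 177 ± 2.58 CPM in knockout cells, against 104 ± 2.63 CPM in control cells. The AKT substrate genes Tbc1d4 (55.9 ± 1.08 CPM in knockout, 33.9 ± 1.44 CPM in control) and Ralgapa2 (60.3 ± 1.51 and 39.8 ± 2.64 CPM) rose 1.65-fold and 1.52-fold (SD, n = 3 each).

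Of 46 genes of mTOR nutrient sensing, 3 rose, 5 fell and 38 were not called, 17.4% against the 22.4% of all genes. Both catalytic subunit genes of AMPK, the energy sensor that restrains complex 1, rose: Prkaa2 1.71-fold (8.22 ± 1.32 CPM in knockout, 4.78 ± 0.545 CPM in control) and Prkaa1 1.22-fold (80.4 ± 2.78 and 65.9 ± 2 CPM). Its β2 subunit gene Prkab2 fell 1.15-fold, not without knockout replicate 3 or control replicate 2. Fnip2, which encodes a partner of folliculin, fell 1.47-fold to 53 ± 0.0869 CPM in knockout cells, against 77.7 ± 4.55 CPM in control cells, and the sestrin gene Sesn3 1.44-fold (54.8 ± 3.28 and 79.3 ± 7.96 CPM). The Ragulator subunit gene Lamtor3 fell by 0.21 on the log2 scale (not without control replicate 1), and Ddit4l, a relative of the complex 1 inhibitor gene Ddit4, rose 1.20-fold but was not called without knockout replicate 1, 2 or 3 or control replicate 1 or 3, with total count scaling (edgeR adjusted p = 0.0523) or by DESeq2 (adjusted p = 0.0945).

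Of 22 tested outputs of complex 1, 2 rose, 5 fell and 15 were not called (31.8% called, against 22.4% of all genes). The values are mRNA levels, and the activity of complex 1 was not tested. The lipogenic factor gene Srebf1 (366 ± 37.8 CPM in knockout, 233 ± 19.5 CPM in control) rose 1.57-fold and the phosphatidate phosphatase gene Lpin1 (187 ± 2.93 and 131 ± 6.12 CPM) 1.43-fold (SD, n = 3 each). The falls were smaller. The hypoxia factor gene Hif1a fell 1.22-fold, the translation repressor gene Pdcd4 1.19-fold, the amino acid response factor gene Atf4 1.13-fold and the elongation factor kinase gene Eef2k 1.15-fold, the last of these not without knockout replicate 2 or 3 or control replicate 2 or 3, or by DESeq2 (adjusted p = 0.0525).

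Of 31 tested genes known as FOXO targets in various tissues, 10 rose, 3 fell and 18 were not called. The shares were 41.9% called and 32.3% higher, against 22.4% and 11.9% of all genes. The 5 members on that list, Irs2, Insr, Rictor, Eif4ebp1 and Trib1, were described above, and without them 8 of 26 rose and 3 fell (42.3% called, 30.8% higher). Pck1, a gluconeogenic and glyceroneogenic enzyme gene (56.3 ± 4.17 CPM in knockout, 26 ± 3.21 CPM in control), the triglyceride lipase gene Pnpla2 (213 ± 26.8 and 110 ± 12.9 CPM) and the pyruvate dehydrogenase kinase gene Pdk4 (52 ± 3.67 and 32.2 ± 2.33 CPM) had the highest values among the rises beside Trib1, at 1.11, 0.96 and 0.69 on the log2 scale. Sesn3, the growth arrest gene Gadd45a (25.1 ± 0.774 CPM in knockout, 34.2 ± 2.88 CPM in control) and Klf15 (20.9 ± 0.65 and 25 ± 1.32 CPM) fell, Klf15 not without knockout replicate 3 or control replicate 2. The summed mature adipocyte markers given above were higher in the same libraries, and their part in these rises was not tested.

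**Figure D5:**
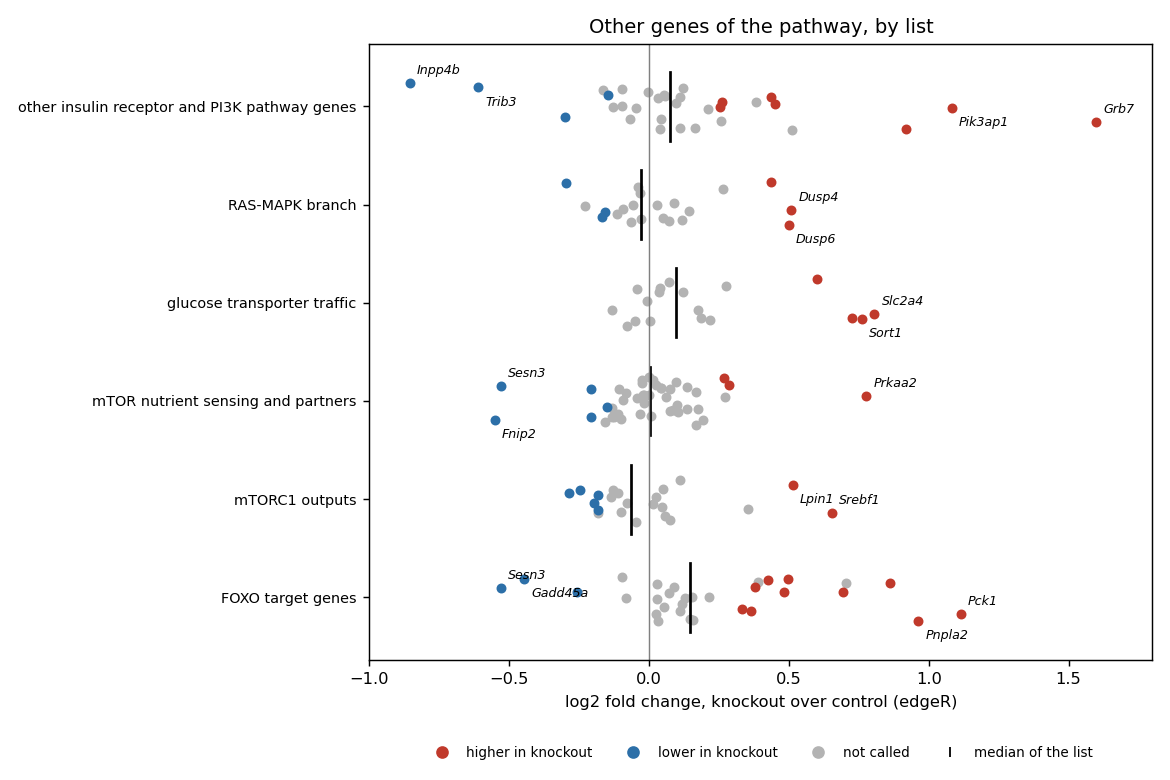
Log2 fold change, knockout over control, of the tested genes of the 6 further pathway lists (points jittered vertically within a list), red where called higher, blue where called lower and grey where not called, with black lines at list medians. At most 2 called genes per direction of each list are named, at a log2 fold change of 0.4 or more in size; list medians run from -0.063 (mTORC1 outputs) to 0.15 (FOXO target genes).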

How the data were processed

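The deposited file holds raw read counts per Ensembl gene, 1 column per library, made from rRNA-depleted stranded libraries per the labels. Per the submitters' processing notes, featureCounts 1.5.1, STAR 2.5.2b, GRCm38 and DESeq2 1.16.0 are named, in roles not stated. The sources used here do not give the annotation release, the strand setting or the handling of multi-mapping reads. Columns were matched to samples by title and samples to groups by genotype label. Replicates were numbered in column order within each group. Of 49671 identifiers, 49326 had a symbol. Coordinates and exon lengths are from GENCODE M21 (GRCm38).

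Counts were tested with edgeR 4.0.16 (TMM, filterByExpr, robust quasi-likelihood F-test, group as the only term, 14946 genes tested, Benjamini-Hochberg adjustment over all of them). The SE of a log2 fold change is its size over the root of its F statistic. DESeq2 1.42.0 and limma-voom (limma 3.58.1), other scalings and filters and leaving out libraries were alternatives. The script was tested on simulated data. Members, lists, tests and alternatives were chosen with earlier results of these data known. Each called member, each member called in any alternative and the most abundant member not called of each role is given library by library, and of the other lists up to 4 called genes per direction by size of the log2 fold change, at an average log2 CPM of at least 0. A few genes that this rule names are not reported here.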

Additional observations from a re-analysis of the deposited data

How the results depend on the processing

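Of the 13 called members, 9 (Insr, Irs3, Sh2b2, Pik3r1, Pik3cb, Akt2, Grb14, Trib1 and Deptor) were called in the same direction in all 13 alternatives. Akt1, Foxo1, Mtor and Eif4ebp2 lost their calls in those named in the report. Of the 34 members not called, 29 were called in none of the alternatives. With 1 library left out, members called higher numbered 9 to 13 and lower 0 to 3, called genes of any kind that were lower 923 (without control replicate 1; 925 without knockout replicate 3) to 1646 (1568 with all libraries and 1913 without knockout replicate 2 and control replicate 3), and other pathway genes called lower 11 (without knockout replicate 3; 12 without control replicate 2) to 22. With 1 library left out, 19.1% to 29.8% of members were called, against 14.2% to 22.9% of the genes tested. Without a filter on low counts 15 members were higher and 2 lower, with Irs2, Sh2b1, Trib2 and Pik3r2 added. In that fit 36.2% of members were called, against 12.9% of 28409 genes, which include those with few counts. DESeq2's test added Irs2 (29.8% of members called, against 19.8% of genes). Without knockout replicate 2 and control replicate 3, 3 members were lower.

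Some members not called changed the sign of a log2 fold change near 0. With 1 library left out, this ran from -0.067 to 0.19 for Irs1, -0.013 to 0.13 for Sos1, -0.11 to 0.11 for Pik3cd, -0.015 to 0.023 for Gsk3a, -0.055 to 0.12 for Gsk3b, -0.088 to 0.059 for Inppl1, -0.065 to 0.047 for Akt1s1 and -0.027 to 0.062 for Rps6kb1. With total count scaling it was -0.00016 for Pik3cd, -0.0028 for Gsk3a and -0.0015 for Akt1s1. Without knockout replicate 2 and control replicate 3 it was -0.030 for Pik3cd, -0.012 for Gsk3a, -0.055 for Akt1s1 and -0.00020 for Rps6kb1. For Inppl1 it was 0.0051 with no filter on low counts and 0.0051 with a CPM of at least 1 in 3 samples. The log2 differences of ratios ran from -0.11 to 0.038 for Gsk3a over Gsk3b, -0.12 to 0.073 for Rictor over Rptor and -0.031 to 0.17 for Rps6kb2 over Rps6kb1 with 1 library left out, and Rictor over Rptor was at 0.025 without knockout replicate 2 and control replicate 3. The cause was not tested. The other 4 ratios kept their sign. No paired analysis was possible because no replicate numbers in the labels are common to knockout and control. The replicate numbers used here follow the column order within each group, so equal numbers mark no known match. With 3 libraries a group, an exact permutation test of a single value cannot fall below p = 0.1.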
